A study of Mus musculus with 24 samples.

Results

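Head-to-head genes lie on opposite strands and are transcribed away from each other from start sites that are close together, so that a single stretch of DNA serves as the promoter of both. The pairs described here were taken from the GENCODE annotation of the mouse genome build mm9, with 1 transcription start site (TSS) per gene, the 5 prime end of the gene record. A pair was kept where both genes were protein-coding, both lay on chromosomes 1 to 19, and the TSSs were at most 1000 bp apart. This gave 789 pairs made of 1562 genes, which is 7.29% of the 21418 coding genes on these chromosomes. The region of a pair ran from 2 kb outside one TSS to 2 kb outside the other, with a median length of 4142 bp.

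The study examined chromatin in the supporting cells of the mouse fetal gonad before and after sex determination. Progenitors were sorted from E10.5 XX and XY gonads carrying SF1-eGFP, Sertoli cells from E13.5 XY gonads carrying Sox9-CFP, and cells labelled granulosa, called pregranulosa cells by the study, from E13.5 XX gonads carrying TESM-CFP. All were on a C57BL/6 x CD1 background, came from pooled gonads, and were isolated by fluorescence through these transgenes, so a population is what each transgene labelled. Chromatin was cut with micrococcal nuclease and precipitated for total H3, H3K4me3 and H3K27me3 in 2 replicates per population, 24 samples in 12 groups, with Drosophila S2 cells added as carrier. For each mark and population a single list of enriched regions was deposited, made from both replicates by the series record, so 8 lists were compared, and no test between populations was possible.

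H3K4me3 is laid down at the start of active genes by the Trithorax group and related enzymes, and H3K27me3 is laid down by the Polycomb repressive complex at genes held silent. A promoter with both marks is called bivalent, a state known from stem and progenitor cells in which developmental regulators are silent but can be switched on. Head-to-head promoters are known mostly from housekeeping genes, such as those for DNA repair, mitochondria and the ribosome, and are usually rich in CpG dinucleotides.

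Each region was placed in 1 of 4 classes by whether at least 1 bp of it was covered by H3K4me3, by H3K27me3, by both or by neither. Shares are given with exact Clopper-Pearson 95% intervals, which cover counting error only. They are set beside the 21418 windows of 4001 bp around all coding TSSs, and beside the 19856 coding genes in no pair, whose windows were lengthened upstream to 4142 bp so that widths were alike.

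The lists differed in depth. The H3K27me3 lists named 6470151 tags for XY progenitors, 33185400 for XX progenitors and 44446456 for Sertoli cells. The H3K4me3 lists named 10162534, 49254553 and 31104760 tags in the same order, and the pregranulosa lists stated none. After overlapping peaks were joined, H3K27me3 regions numbered 9693 in XY progenitors, 9309 in XX progenitors, 13313 in Sertoli and 12609 in pregranulosa cells. Before joining, these lists held 36469, 74001, 74154 and 12609 peaks, so the pregranulosa list alone held no overlapping peaks. What this difference in form brought to the comparisons was not tested. The part of depth in the differences between populations was not tested.

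The sorted cells were checked against markers of their own and of other cells. Of 6 early gonad markers 5 were bivalent in XY and 6 in XX progenitors, among them Nr5a1, the gene for SF1, whose transgene was used for sorting. In Sertoli cells 3 of these were bivalent and in pregranulosa cells 1, and the others had H3K4me3 alone, Nr5a1 in both. All 6 Sertoli markers examined had H3K4me3 without H3K27me3 in Sertoli cells. In pregranulosa cells 5 of these 6 were bivalent, among them Sox9, the testis-determining transcription factor, and Amh, which encodes anti-Müllerian hormone. Of the 6 pregranulosa markers all were bivalent in Sertoli cells, while Wnt4, Rspo1 and Bmp2, secreted signals of the ovary and other tissues, had only H3K4me3 in pregranulosa cells. Foxl2, Fst and Lef1 were bivalent in both. The study reports that pregranulosa cells lose H3K27me3 at the TSS and gene body of Foxl2 and at the TSS of Lef1. An overlap of 1 bp anywhere in a window of 4001 bp does not show this. Among 5 endothelial markers 4 were unmarked in Sertoli cells and 3 in pregranulosa cells, where Cdh5 had H3K4me3. Of 4 blood markers found, 3 were unmarked in every population and none had H3K4me3. Of 5 germ cell markers Ddx4 and Nanos3 were unmarked and Dazl had H3K4me3 alone in all 4 populations. Pou5f1 had H3K27me3 in all 4, with H3K4me3 in Sertoli cells only. Dppa3 had H3K27me3 alone in XY progenitors, was bivalent in XX progenitors and Sertoli cells, and had H3K4me3 alone in pregranulosa cells. Of 4 markers of Leydig and other steroidogenic cells, H3K4me3 was at 1 in XY progenitors, 3 in XX progenitors, 2 in Sertoli and 3 in pregranulosa cells, Star among them in every list. The 3 mesonephros markers were bivalent in every population, and the part of other cells in the results was not tested.

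Nearly every pair carried H3K4me3. It was present at 768 pairs in XY progenitors (97.3%, 96 to 98.3), where 64.8% of all coding windows had it. XX progenitors had H3K4me3 at 771 pairs, beside 66.7% of all windows. Sertoli cells had it at 769 pairs, beside 65.5%. Pregranulosa cells had it at 772 pairs, beside 67%. A set of 767 pairs carried the mark in all 4 lists and 15 in none, where 62.5% of all coding windows had it in all 4 and 30% in none. In the other 7 pairs H3K4me3 was called in some populations only. Among CpG-rich promoters, as defined below, a high frequency of H3K4me3 was not particular to pairs. In XY progenitors 98% of CpG-rich genes in no pair had it, beside 99.8% of pairs with 2 CpG-rich windows. Elsewhere the shares differed, at 76.5% of pairs with 0 CpG-rich windows (65.8 to 85.2) and 39% of genes in no pair that were not CpG-rich.

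H3K27me3 was less frequent at pairs than at other promoters. In XY progenitors 103 pairs had H3K27me3, 13.1% of the pairs (10.8 to 15.6), beside 23.6% of all coding windows. In XX progenitors there were 102 such pairs, beside 22.8%. Sertoli cells had 79, which is 10% of the pairs (8.01 to 12.3), beside 24.2%. Pregranulosa cells had 81, beside 22.1%. The share among pairs was thus below the share among all windows in each population, and it was lower in both E13.5 populations than in both progenitor populations.

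Almost all H3K27me3 at pairs was found together with H3K4me3. XY progenitors had 100 bivalent pairs, 12.7% (10.4 to 15.2), beside 20.9% of all windows. In XX progenitors 99 pairs were bivalent, beside 21.4%. The number was 73 in Sertoli cells, 9.25% (7.32 to 11.5), beside 19.2%. It was 78 in pregranulosa cells, 9.89% (7.89 to 12.2), beside 19.6%. Only 3 pairs in XY progenitors, 3 in XX progenitors, 6 in Sertoli cells and 3 in pregranulosa cells had H3K27me3 alone, and 18, 15, 14 and 14 had neither mark. The remaining 668, 672, 696 and 694 pairs had H3K4me3 alone.

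Pairs also had less H3K27me3 than other genes when only promoters with H3K4me3 were counted. Among the pairs with H3K4me3 in XY progenitors, 13% also had H3K27me3 (10.7 to 15.6), beside 34.6% of the H3K4me3-marked genes in no pair (33.8 to 35.5). In Sertoli cells the shares were 9.49% of pairs and 31.9% of genes in no pair. XX progenitors had 12.8% and 34.4%, and pregranulosa cells 10.1% and 31.6%. In each population the interval of the pairs lay below that of the other genes.

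Most pairs had 1 class across the 4 populations, as most never had H3K27me3. The class was the same in all 4 lists for 720 pairs, 91.3% (89.1 to 93.1), beside 78.1% of the genes in no pair (77.5 to 78.7). These were 651 pairs with H3K4me3 alone, 56 bivalent pairs, 11 unmarked pairs and 2 with H3K27me3 alone. Bivalent in all 4 populations were 7.1% of pairs (5.41 to 9.12), beside 14% of all coding windows.

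Classes varied with the distance between the TSSs, which had a median of 141 bp (quartiles 73 and 271) and ranged from 1 to 987 bp. In XY progenitors 7.88% of the 292 pairs at most 100 bp apart were bivalent (5.06 to 11.6). The share was 13.6% (10.1 to 17.8) for the 330 pairs more than 100 and at most 300 bp apart. It was 19.2% for the 167 pairs beyond 300 bp. Sertoli cells showed the same order at lower values, with 5.82%, 9.7% and 14.4%. Regions of more distant pairs are also longer, by the distance itself. At the limit of the rule, pairs just inside were Btf3l4/Txndc12 (987 bp, H3K4me3 alone in all 4 populations) and Pdzd7/Sfxn3 (987 bp, bivalent in all 4). Just outside were Nacc1/Trmt1 at 1004 bp, Atg14/Gm6616 at 1008 bp and Sgsm2/Tsr1 at 1011 bp, all with H3K4me3 alone in all 4 populations.

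A single H3K4me3 region usually spanned both TSSs. In XY progenitors this held for 748 of 768 marked pairs (97.4%, 96 to 98.4), with 12 pairs covered at 1 TSS and 8 at neither. In XX progenitors both TSSs were covered at 759 of 771, in Sertoli cells at 754 of 769 and in pregranulosa cells at 761 of 772. The covered stretch was longer than at other genes. Marked pairs had a median of 2718 bp of H3K4me3 in XY progenitors, beside 2154 bp at genes in no pair. In Sertoli cells the medians were 3066 and 2482 bp. Bivalent pairs had less H3K4me3 than pairs with H3K4me3 alone, with medians of 2238 and 2768 bp in XY progenitors and 2288 and 3112 bp in Sertoli cells.

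H3K27me3 also covered both TSSs where it was present, so a call rarely separated the TSSs of a pair. In XY progenitors it covered both TSSs of 86 of 103 marked pairs (83.5%, 74.9 to 90.1), 1 TSS of 3 pairs and neither TSS of 14. In XX progenitors both were covered at 91 of 102, in Sertoli cells at 67 of 79 and in pregranulosa cells at 65 of 81. Only 1 TSS was covered at 3 pairs in XX progenitors, at 0 of 79 in Sertoli cells (which allows a share of up to 4.56%) and at 5 in pregranulosa cells. H3K27me3 was called with a peak size of 5000 bp, above the median pair region, so a difference between TSSs this close could seldom have been seen.

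A single pair, Amdhd1/Ccdc38, had the same TSS covered and the other uncovered in 2 populations. Amdhd1, an enzyme of histidine breakdown, was the covered side in both progenitor populations, with 2258 bp of the region covered in XY and 2460 bp in XX. At E13.5 both TSSs were covered, with 4542 bp in Sertoli and 4600 bp in pregranulosa cells. Other pairs were one-sided in 1 population only, and the 2 given here were chosen after their values were seen. For Rgs9bp/Ankrd27, H3K27me3 covered both TSSs in the progenitors and only that of Rgs9bp, which anchors a regulator of G protein signalling in photoreceptors, in pregranulosa cells (2565 bp), while Sertoli cells had none. The neighbouring sulfurtransferase genes Tst and Mpst had the mark in all 4 lists, but it reached a TSS only in XX progenitors, at Mpst.

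H3K27me3 regions at pairs were narrower than those at other promoters. The widest region touching a marked pair had a median width of 6526 bp in XY progenitors, beside 8144 bp for marked genes in no pair. In Sertoli cells the medians were 9199 and 11631 bp. XX progenitors had 7686 and 8932 bp, and pregranulosa cells 9020 and 10410 bp.

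From XY progenitors to Sertoli cells most marked pairs kept H3K27me3 in the lists as deposited, and losses outnumbered gains. With equal numbers of regions per list, a setting described below, 55 of 100 marked pairs lost it (44.7 to 65%), so most did not keep it there. That setting removed all Sertoli regions narrower than 6505 bp, so it adds losses by its own rule. In the lists as deposited H3K27me3 was present in XY progenitors and absent in Sertoli cells at 36 pairs. This is 4.56% of all pairs (3.22 to 6.26), where 5.29% of all coding windows made this change. The opposite change was seen at 12 pairs, 1.52% (0.788 to 2.64), where 5.87% of all windows made it. Taken over the 103 pairs that began with the mark, 35% lost it (25.8 to 45), beside 21.8% of marked genes in no pair (20.7 to 23). Of the 100 bivalent pairs 63 stayed bivalent (52.8 to 72.4%, beside 74.5% of bivalent genes in no pair), 36 kept H3K4me3 alone and 1 kept H3K27me3 alone.

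The XX lineage moved the same way. From XX progenitors to pregranulosa cells 30 pairs lost H3K27me3, where 4.22% of all coding windows did, and 9 gained it, where 3.42% did. Of the 102 pairs marked in XX progenitors 29.4% lost the mark (20.8 to 39.3), beside 17.9% of marked genes in no pair (16.8 to 19). Bivalent pairs numbered 99 at the start, of which 70 were bivalent in pregranulosa cells (70.7%, 60.7 to 79.4, beside 80.4% of bivalent genes in no pair) and 29 had H3K4me3 alone. Where each list was reduced to as many of its widest regions as the shortest list held, the losses were 55% in the XY and 50% in the XX lineage, beside 29.9% and 28.1% of genes in no pair. The shortest H3K27me3 list, of XX progenitors, stayed whole, while pregranulosa regions narrower than 6352 bp were removed. Losses are thus added by the rule, and regions at pairs were the narrower ones. This setting therefore cannot show how far pairs and other genes differ in loss.

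H3K4me3 changed at few pairs. It was lost at 1 pair from XY progenitors to Sertoli cells, where 2.1% of all windows lost it, and gained at 2, where 2.8% gained it. From XX progenitors to pregranulosa cells it was lost at 2 pairs and gained at 3, beside 1.44% and 1.78% of all windows.

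Between the sexes at E10.5, pairs differed little. H3K4me3 was in XY and not XX progenitors at 0 pairs, where 0.976% of all windows showed this, which allows a share of up to 0.466%. It was in XX and not XY progenitors at 3 pairs, beside 2.85%. H3K27me3 was in XY only at 8 pairs, beside 2.33%, and in XX only at 7, beside 1.55%. At E13.5 H3K4me3 was in Sertoli and not in pregranulosa cells at 1 pair, beside 1.06%, and the reverse at 4, beside 2.57%. H3K27me3 was in Sertoli and not in pregranulosa cells at 13 pairs, beside 5.11% of all windows, and the reverse at 15 pairs, beside 2.96%. Among all windows the first of these differences was the more frequent, whereas among pairs the counts were close.

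All pairs are accounted for by where H3K27me3 was called. It was in no list at 666 pairs, 84.4% beside 68.8% of all coding windows, and in all 4 lists at 59, 7.48% beside 16.3%. Both progenitor lists and no E13.5 list had it at 19 pairs, 2.41% beside 2.24%. It was missing only in Sertoli cells at 11 pairs, 1.39% beside 1.63%, and only in pregranulosa cells at 6, 0.76% beside 1.09%. These 3 patterns of loss were thus about as frequent among pairs as among all windows. Only the Sertoli list held it at 5 pairs, 0.634% (0.206 to 1.47) beside 3.28%, and only the pregranulosa list at 4, 0.507% (0.138 to 1.29) beside 1.09%. Both E13.5 lists and no progenitor list had it at 4, 0.507% (0.138 to 1.29) beside 1.69%. The intervals of the first and last of these 3 patterns of gain lay below the share of all windows, and that of pregranulosa cells contained it. Only XY progenitors had it at 6 pairs, beside 1.29% of all windows, and only XX progenitors at 4, beside 0.542%. The last 5 pairs had other combinations, 2 of them missing it only in XY progenitors and 1 only in XX progenitors.

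Pairs that lost H3K27me3 had narrower regions at the start. In XY progenitors the 36 pairs without the mark in Sertoli cells had a median region width of 6256 bp, and the 67 that kept it 7681 bp. Widths of at most 5001 bp, a single calling window, made up 44.4% of the first (27.9 to 61.9) and 20.9% of the second (11.9 to 32.6). In XX progenitors the medians were 5001 bp for the 30 lost and 8887 bp for the 72 kept. The part of depth and region size in the losses was not tested.

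Of the head-to-head pairs known from textbooks, 6 were found. Those of DNA repair and replication had H3K4me3 alone in all 4 populations. Atm, the kinase that responds to DNA breaks, shares a promoter with Npat, a coactivator of histone genes, with 3712, 3544, 3506 and 3826 bp of H3K4me3 in XY progenitors, XX progenitors, Sertoli and pregranulosa cells. Brca1, which acts in homologous recombination, is paired with Nbr1, an autophagy receptor, with 3524, 3605, 3411 and 3173 bp. Mcm4, a subunit of the replicative helicase, and Prkdc, the catalytic subunit of the DNA-dependent protein kinase, had 3242, 3643, 3003 and 3128 bp. The widest cover was that of the tumour suppressor Trp53 and Wrap53, which acts in telomerase assembly, where all 4105 bp of the region were covered in every population. Mrps12, a mitochondrial ribosomal protein, and Sars2, the mitochondrial seryl-tRNA synthetase, had 2057, 3083, 2053 and 2856 bp. None of these 5 pairs had H3K27me3 in any list.

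Col4a4/Col4a3, which encode collagen IV chains of specialised basement membranes, was the exception. The pair was bivalent in all 4 populations, with 4073 bp of H3K27me3, the whole region, in XY progenitors, XX progenitors and pregranulosa cells and 3876 bp in Sertoli cells. Its H3K4me3 was shorter, at 1688, 2177, 1512 and 1704 bp in the order used above. The interval between the TSSs is shown beside those of Brca1/Nbr1 and Wrap53/Trp53, as a bivalent promoter and 2 with H3K4me3 alone. The intervals are chr1:82583425-82583495, chr11:101413270-101413462 and chr11:69393758-69393860 on mm9, plus strand, with the minus-strand gene named first and transcribed to the left. None overlapped an annotated gene or exon. Capitals mark CCAAT or its reverse complement ATTGG, 1 of 8 motifs searched.
Col4a4/Col4a3: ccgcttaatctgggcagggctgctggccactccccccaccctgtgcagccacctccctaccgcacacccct
Brca1/Nbr1: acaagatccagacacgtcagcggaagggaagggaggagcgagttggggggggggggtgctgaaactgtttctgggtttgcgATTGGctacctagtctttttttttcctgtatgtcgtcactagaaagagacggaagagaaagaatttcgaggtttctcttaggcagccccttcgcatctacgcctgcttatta
Wrap53/Trp53: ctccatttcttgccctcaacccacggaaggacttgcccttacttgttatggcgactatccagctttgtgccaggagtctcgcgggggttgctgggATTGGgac
The Col4a4/Col4a3 interval had the highest GC content of the 3 (69%) and the lowest ratio of observed to expected CpG (0.29), and held none of the motifs. The ratio was 0.782 for Brca1/Nbr1 and 0.49 for Wrap53/Trp53.

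The 8 pairs bivalent in all 4 populations with the most bases of H3K27me3 are described. Cover is limited by the length of the region, so this order favours distant TSSs. Bai3/Gm9884, with an adhesion receptor of the brain, had the mark over all 4951 bp of its region in each population. The same held for Abca17/Abca3 (4922 bp), where Abca3 is the lipid transporter of lung surfactant. Lyzl4/Vipr1, with a receptor for vasoactive intestinal peptide, was covered over 4621 bp in each list. Duox2/Duoxa2, the dual oxidase of the thyroid and its maturation factor, lay in H3K27me3 regions of 29072 to 35142 bp. These 4 pairs carried H3K27me3 over their whole region in every list, as did Ntrk3/Gm9885, Hspa1a/Hspa1l and Bend6/Dst, described next.

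Ntrk3/Gm9885, with the neurotrophin-3 receptor, lay in regions that widened from 16936 bp in XY progenitors to 35486 bp in Sertoli cells and from 19051 bp in XX progenitors to 21797 bp in pregranulosa cells. Hspa1a/Hspa1l, both heat shock proteins of the Hsp70 family, went the other way in region width, from 23723 to 7965 bp and from 21287 to 10586 bp. Bend6/Dst, where Dst encodes a cytoskeletal linker, had 4465 bp covered in each list. Pdzd7/Sfxn3 had 4988 bp in both progenitor populations, 3594 bp in Sertoli and 4231 bp in pregranulosa cells.

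Loss only in Sertoli cells was seen at 11 pairs, 1.39% of pairs beside 1.63% of all coding windows, and the 6 with the most covered bases are described. Sobp/9030612E09Rik had H3K27me3 over the whole 4175 bp in both progenitor populations and in pregranulosa cells and 0 bp in Sertoli cells, where H3K4me3 covered all 4175 bp. Atxn1/5033430I15Rik, with the gene for ataxin-1, had 4278 bp in 3 populations and 0 in Sertoli cells. Spry4, an inhibitor of receptor tyrosine kinase signalling, formed 2 pairs with plus-strand records of the same start, Arhgap26 and 9630014M24Rik, which are therefore a single promoter. Its H3K27me3 covered 3481 bp in XY progenitors, 4267 bp in XX progenitors and pregranulosa cells and 0 bp in Sertoli cells. For 5033414D02Rik/Cd274, whose plus-strand gene encodes the immune checkpoint ligand PD-L1, the values were 4066 bp in 3 populations and 0 in Sertoli cells. Gm5087/Synpr, with the synaptic vesicle protein synaptoporin, had 3696, 4143 and 4143 bp and 0 in Sertoli cells. All 6 kept H3K4me3 in every list.

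The reciprocal group, with loss only in pregranulosa cells, held 6 pairs, 0.76% of pairs beside 1.09% of all coding windows. Smc1b, the meiotic cohesin subunit, is paired with Ribc2, and had 3770, 4143 and 4026 bp of H3K27me3 in XY progenitors, XX progenitors and Sertoli cells and 0 in pregranulosa cells. Ddx25, a testis RNA helicase, is paired with Pus3, a pseudouridine synthase, and had 3411, 3675 and 2870 bp and then 0. Lypd4/Dmrtc2, where Dmrtc2 is a Dmrt family gene of male meiosis, had no H3K4me3 in any list, 4117 bp of H3K27me3 in 3 populations and neither mark in pregranulosa cells. Rgl1/Arpc5, a Ral exchange factor and a subunit of the Arp2/3 complex, went from 4180 bp in XX progenitors to 0. For 6330439K17Rik/Polr3f, with a subunit of RNA polymerase III, the step was from 2747 bp to 0. In Sertoli cells the H3K27me3 regions at Smc1b/Ribc2, Ddx25/Pus3, Rgl1/Arpc5 and 6330439K17Rik/Polr3f were no wider than a single calling window, 5001 bp.

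Loss in both lineages was seen at 19 pairs, 2.41% of pairs beside 2.24% of all coding windows. Hist1h2bf/Hist1h2ad, a pair of core histone genes, had both marks over all 4186 bp in the progenitors, and H3K4me3 alone over the same 4186 bp in Sertoli and pregranulosa cells. Plcd3/Acbd4, with a phospholipase C, had 4025 bp of H3K27me3 in both progenitor populations and 0 at E13.5. Ostf1/BC016495 had 4162 bp and then 0. Entpd5/2900006K08Rik, with a nucleotidase of the endoplasmic reticulum, had 3990 and 3991 bp and then 0. N4bp3/D930048N14Rik (4113 bp) and Gm10399/Vsig10 (4025 bp) made the same change. H3K4me3 was called at all 6 in every list.

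The intervals between the TSSs are printed for 1 pair of each kind of loss, at chr10:42894337-42894509 for Sobp/9030612E09Rik, chr15:84962388-84962528 for Smc1b/Ribc2 and chr13:23666066-23666249 for Hist1h2bf/Hist1h2ad, on mm9, plus strand. They overlapped no annotated gene or exon. Capitals mark GGGCGG in the first and CCAAT or ATTGG in the third.
Sobp/9030612E09Rik: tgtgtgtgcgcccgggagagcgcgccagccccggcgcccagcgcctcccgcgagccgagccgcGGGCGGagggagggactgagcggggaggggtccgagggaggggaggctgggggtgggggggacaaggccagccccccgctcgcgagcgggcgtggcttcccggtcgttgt
Smc1b/Ribc2: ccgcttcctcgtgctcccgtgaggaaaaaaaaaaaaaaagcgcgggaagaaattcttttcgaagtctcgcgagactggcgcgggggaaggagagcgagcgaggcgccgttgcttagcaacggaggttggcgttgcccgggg
Hist1h2bf/Hist1h2ad: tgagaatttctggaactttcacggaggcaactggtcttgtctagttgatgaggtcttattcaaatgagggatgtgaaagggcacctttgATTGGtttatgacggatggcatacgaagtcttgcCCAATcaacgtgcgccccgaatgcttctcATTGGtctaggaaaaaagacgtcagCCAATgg
GC content was 79.2% in the Sobp interval, 58.9% in the Smc1b interval and 46.2% in the histone interval. The Smc1b interval held none of the motifs, and the histone interval held CCAAT 2 times on each strand.

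Gains of H3K27me3 were fewer. In Sertoli cells only, 5 pairs gained it. Actn3/Zdhhc24, with the alpha-actinin of fast muscle, went from 0 bp in both progenitor populations to 3857 bp in Sertoli cells, with H3K4me3 throughout. At 4921536K21Rik/Dusp18 the gain was 1038 bp and reached no TSS, and at Gm12355/Gsdma3, which had no H3K4me3, it was 263 bp at the edge of a wider region.

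Another pair of this group ended in opposite states in the 2 lineages. Hspb2/Cryab, both small heat shock proteins, was unmarked in both progenitor populations. In Sertoli cells H3K27me3 covered all 4405 bp of the region and H3K4me3 was absent, whereas in pregranulosa cells 1263 bp of H3K4me3 were called and no H3K27me3. The H3K27me3 region was 5001 bp wide, a single calling window.

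Pregranulosa cells alone gained the mark at 4 pairs. Pus7l/Irak4, where Irak4 is a kinase of Toll-like receptor signalling, went from 0 to 4097 bp within a region of 24168 bp. Nisch/Sema3g, with a class 3 semaphorin, gained 4218 bp and had no H3K4me3 in pregranulosa cells. At 4930525F21Rik/Dtwd1 the gain was 1985 bp and at Efnb2/4921522P10Rik, with the ligand ephrin-B2, 1657 bp, and neither reached a TSS.

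Both lineages gained H3K27me3 at the last 4 pairs. Tmem135/Fzd4, with a Frizzled receptor, had H3K4me3 in every list and went from 0 to 4145 bp of H3K27me3, the whole region, in Sertoli and in pregranulosa cells. Cdr2/4933427G17Rik gained 4198 bp in both. Tbc1d16/Ccdc40, where Ccdc40 is needed for ciliary beating, gained 4074 bp in both. Gm10655/Tle3, with a Groucho family corepressor, gained 3144 bp in Sertoli cells, from a region 121485 bp wide, and 223 bp in pregranulosa cells, while H3K4me3 covered all 4191 bp throughout.

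Sequences are shown for a gain in pregranulosa cells only and a gain in both lineages, at chr15:94373979-94374073 for Pus7l/Irak4 and chr7:96552733-96552875 for Tmem135/Fzd4, on mm9, plus strand, in intervals that overlapped no annotated gene or exon. Capitals mark matches on either strand to the letters of the CCAAT box, the GC box and the ETS motif, which are spelled out below, and some of the marked stretches overlap or adjoin.
Pus7l/Irak4: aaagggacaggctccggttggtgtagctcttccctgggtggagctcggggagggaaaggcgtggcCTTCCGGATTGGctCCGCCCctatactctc
Tmem135/Fzd4: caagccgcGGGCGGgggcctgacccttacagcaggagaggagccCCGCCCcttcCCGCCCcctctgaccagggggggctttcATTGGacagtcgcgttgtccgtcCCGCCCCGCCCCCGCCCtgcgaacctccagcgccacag
The Tmem135/Fzd4 interval held GGGCGG 1 time and its reverse complement 5 times. GC content was 73.4% there and 63.2% at Pus7l/Irak4.

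H3K4me3 was called in no list at 15 pairs. With H3K27me3 in all 4 populations were 2010002M12Rik/Ifit1, with an interferon-induced gene (3969, 4129, 3662 and 3754 bp), and Il11/Tmem190, with the cytokine interleukin 11 (2342, 3615, 4083 and 3763 bp). Lypd4/Dmrtc2 and Gm12355/Gsdma3 are described above. The other 11 had neither mark in any population. They included Pecam1/Gm885, with an endothelial adhesion molecule, Smyd1/Cd8b1, with a chain of the T cell coreceptor, Plcz1/Capza3, both genes of sperm, and Dnase2b/Uox, with urate oxidase, and of these only Dnase2b/Uox and 4931428L18Rik/4930521A18Rik fall under the rule for named pairs, the others having been chosen after their values were seen. The Il11/Tmem190 interval, chr7:4734461-4734541 on mm9, plus strand, is an example without H3K4me3 and overlapped no annotated gene or exon. Capitals mark GGGCGG.
Il11/Tmem190: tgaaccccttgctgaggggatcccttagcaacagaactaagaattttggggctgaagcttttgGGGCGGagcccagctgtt
Its ratio of observed to expected CpG was 0.18, the lowest of the 9 intervals printed.

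At 4 pairs H3K4me3 had the same call in both progenitor populations and another call in 1 or both E13.5 populations. Kirrel2/Nphs1, with nephrin of the kidney filtration barrier, lost it in Sertoli cells, from 1001 bp in XY progenitors to 0. The 1001 bp are the length of a single H3K4me3 calling window, and 4626 bp of H3K27me3 stayed in every list. Cabp4/Gpr152 gained 1355 bp of H3K4me3 in pregranulosa cells. Best1/Rab3il1, with a chloride channel of the retinal pigment epithelium, gained 860 bp in Sertoli and 321 bp in pregranulosa cells. Hspb2/Cryab is given above. The other 3 pairs with a difference, chosen after their values were seen, were Deaf1/Eps8l2 (2306 bp in XX progenitors, 1679 bp in pregranulosa cells and 0 in both XY populations), Nisch/Sema3g and Sncg/Mmrn2.

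Housekeeping families other than the cell cycle list had little H3K27me3, in pairs as in their whole lists. Of 23 pairs with a respiratory chain gene, 0 had the mark in any population. The same was true of 10 pairs with a cytosolic ribosomal protein or a name of that form (Rps6kb1, matched by its name, is a kinase), 7 with an aminoacyl-tRNA synthetase and 15 with a cell cycle gene. Among all genes of these lists, paired or not, 8.08%, 6.34%, 2.94% and 19% had H3K27me3 in XY progenitors, where 23.6% of all coding windows had it, so at these numbers of pairs few or none would carry it at the share of the first 3 lists. Pairs with a mitochondrial ribosomal protein numbered 16, and Mrps18b/Ppp1r10 alone had H3K27me3, in both progenitor populations, which is 6.25% beside 6.49% of the whole list in XY and 2.6% in XX progenitors. The DNA repair and replication list, whose prefix Pol also takes in RNA polymerase subunits, had 40 pairs, 5% of them with H3K27me3 in XY progenitors beside 7.04% of the whole list. Of these Pxmp2/Pole, with the catalytic subunit of DNA polymerase epsilon, was bivalent in the progenitors only, and 6330439K17Rik/Polr3f was bivalent in all but pregranulosa cells.

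Histone genes stood at 14 pairs, all with H3K4me3. Bivalent in both progenitor populations were Hist1h2bf/Hist1h2ad and Hist1h2ae/Hist1h2bg, in XY only Hist1h2bl/Hist1h2ai and in XX only Hist1h2bq/Hist1h2ao. This is 21.4% of the 14 in each progenitor population, beside 12.7% of all pairs in XY and 12.5% in XX progenitors. At E13.5 none of the 14 was bivalent in either population, beside 9.25% of all pairs in Sertoli and 9.89% in pregranulosa cells. At this number of pairs few or none would be bivalent at the E13.5 shares. Among all 66 genes of the list H3K27me3 went from 13.6% in XY progenitors to 3.03% in Sertoli cells. Of the pairs named in this paragraph and those before and after it, those outside the first 3 of their list by symbol were chosen after their values were seen.

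Families that regulate development had few pairs. A transcription factor of the developmental list was in 7, of which 4 had H3K27me3 in XY progenitors (57.1%), beside 71.6% of all 327 genes of that list. Foxa3/Sympk, Nr2e1/Ostm1 and Gm17649/Hoxc13 were bivalent in all 4 populations, and each joins a regulator of liver, brain or skin to another gene. Lypd4/Dmrtc2 is the fourth, and 1 of the 7, Orc3/Rars2, entered the list by its name only. Signalling ligands and receptors were in 7 pairs, of which 0 had H3K27me3 in XY progenitors, beside 61.5% of the 213 genes of the list. In pregranulosa cells 3 had it, Tmem135/Fzd4, Efnb2/4921522P10Rik and Nisch/Sema3g, which is 42.9% beside 62.9% of the list. Sertoli cells had it at 1 of the 7, Tmem135/Fzd4, beside 61% of the list. Of 2 pairs matched as collagen genes Col4a4/Col4a3 was bivalent, where 40% of the 55 genes of the list had H3K27me3 in XY progenitors, and the other, Polk/Col4a3bp, holds a lipid transfer protein. Ion channels had 2 pairs, of which Clcn3/B230317F23Rik was bivalent in XX progenitors only, where 68.3% of all genes of the list had H3K27me3. Cilium genes had 24 pairs, in a list that takes in all tetratricopeptide repeat genes by name. Among them 2310028H24Rik/Dnaic1, with a dynein chain of motile cilia, was bivalent in all 4 populations. Zinc finger genes had 18 pairs, of which 2 were bivalent in all lists, both records of Ccdc92/Zfp664, a share of 11.1% beside 10.3% of all genes of the list in XY progenitors. No pair held a protocadherin or Polycomb group gene.

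Pairs with a gene specific to either cell type were counted by class. The lists of these genes were chosen by another study from expression, and only their names are used. Of 1327 Sertoli-specific genes matched, 128 were in a pair (9.65%, 8.11 to 11.4), making 123 pairs. Bivalent were 12 of these in XY progenitors (9.76%, beside 12.7% of all pairs), 11 in XX progenitors, 3 in Sertoli cells (2.44%, 0.506 to 6.96, beside 9.25%) and 8 in pregranulosa cells. Of 1072 pregranulosa-specific genes 71 were in a pair (6.62%, 5.21 to 8.28), making 64 pairs, and 10, 9, 7 and 8 of these were bivalent in the same order. That is 15.6% in XY progenitors (7.76 to 26.9), beside 12.7% of all pairs, and 12.5% in pregranulosa cells (5.55 to 23.2), beside 9.89%. Among all records of Sertoli-specific genes on these chromosomes 26.7% had H3K27me3 in XY progenitors and 13.1% in Sertoli cells. Among those of pregranulosa-specific genes 27.2% had it in XX progenitors and 19.4% in pregranulosa cells.

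The 6 pairs with a Sertoli-specific gene and the most H3K27me3 lost in Sertoli cells differed in the XX lineage. Dok1/Loxl3, where Loxl3 is a lysyl oxidase that crosslinks collagen, went from 4493 bp in XY progenitors to 0, with 1442 bp in pregranulosa cells. Sobp/9030612E09Rik and both records of Spry4 had the mark in pregranulosa cells over the whole region. Gm10399/Vsig10 and Entpd5/2900006K08Rik lost it in both lineages.

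Pregranulosa-specific pairs changed in both directions in their own lineage. Rgl1/Arpc5, Pip4k2a/4930426L09Rik (3607 bp to 0) and S100a1/S100a13 (4044 bp to 0), a pair of calcium-binding proteins, lost H3K27me3. Gm10655/Tle3 and 4930525F21Rik/Dtwd1 gained it. In 4 pairs 1 gene was Sertoli-specific and the other pregranulosa-specific, Trove2/Uchl5, Abhd12/Gins1, Cdk5/Slc4a2 and Tmed5/Ccdc18. All had H3K4me3 alone in every list, a class given to the region as a whole.

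The sequence around the TSSs set pairs apart from other genes. In the window from 250 bp before to 50 bp after the TSS, genes in pairs had a median GC content of 62.7% (quartiles 57 and 68), beside 54.7% (46.7 and 63) for genes in no pair. The median ratio of observed to expected CpG was 0.852, beside 0.499. Windows with a GC share of at least 0.5 and a ratio of at least 0.6 were called CpG-rich, a definition chosen after seeing the data. By it 83% of genes in pairs (81 to 84.8) were CpG-rich, beside 39.7% of genes in no pair (39 to 40.4). Among genes with H3K4me3 alone in all 4 populations the shares were 86.7% (84.7 to 88.5) and 69.4% (68.2 to 70.4). Both windows were CpG-rich at 603 pairs, 1 at 105 and none at 81.

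Among CpG-rich promoters pairs were less often bivalent than other genes. Of the 603 pairs with both windows CpG-rich 10.9% were bivalent in XY progenitors (8.57 to 13.7), beside 30.8% of 7876 CpG-rich genes in no pair (29.8 to 31.8). In Sertoli cells the shares were 8.13% (6.07 to 10.6) and 27.9% (26.9 to 28.9). The other 186 pairs, of which 105 had 1 CpG-rich window, are set beside genes in no pair that were not CpG-rich. Bivalent were 18.3% (13 to 24.6) and 15.5% in XY progenitors, and 18.3% and 16.4% in XX progenitors. At E13.5 the order was reversed, with 12.9% and 15% in Sertoli and 14% and 15.4% in pregranulosa cells. These groups differed in H3K4me3, which in XY progenitors was at 89.2% of such pairs and 39% of such genes. Counted only where H3K4me3 was present, a split chosen after seeing the data, H3K27me3 was at 25.8% of pairs with 0 CpG-rich windows in XY progenitors (15.5 to 38.5) and 39.8% of such genes. In Sertoli cells these were 14.3% (6.75 to 25.4) and 37.5%. With H3K4me3 present, the share of pairs was thus below that of other genes in both kinds of promoter. Among pairs without H3K4me3 the windows were poor in CpG, with a median ratio of 0.28 over 30 genes. Genes of pairs bivalent in all 4 populations had a ratio of 0.745, and those of pairs with H3K4me3 alone in all 4 had 0.872.

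The 8 motifs were searched on both strands of the same 300 bases, and both windows of a close pair share bases, so a match can count for both genes. The TATA box TATAAA was in 4.48% of genes in pairs (3.51 to 5.63), beside 14.2% of genes in no pair. The GC box GGGCGG, bound by SP and KLF factors, was in 68.2% of genes in pairs, beside 43.7% of all coding genes. The ETS motif CCGGAAG was in 28.2% (26 to 30.5), beside 10.9%. Part of these contrasts was shared by other promoters with H3K4me3. Among genes with H3K4me3 alone in all 4 populations, TATAAA was in 3.8% of those in pairs and 6.62% of those in no pair. The GC box was in 68.4% and 63.7%, and the ETS motif in 32% and 20.5%. These shares describe letters in a window and not bound sites.

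Of the other motifs, CCAAT, bound by NFY, was in 42.4% of genes in pairs, beside 37.6% of all. The cyclic AMP response element TGACGTCA was in 4.29%, beside 2.31%, and the NRF1 motif GCATGCGC in 6.98%, beside 3.35%. For YY1, AAGATGGCG was in 5.25%, beside 1.84%, and for ZNF143, ACTACAATT was in 0.768%, beside 0.49%. Among genes with H3K4me3 alone in all 4 populations, paired and unpaired genes were closer for most of these. CCAAT was in 43.6% and 39.2%, TGACGTCA in 4.35% and 3.97%, and the NRF1 motif in 7.45% and 6.34%. The YY1 letters were in 6.06% and 3.43%, and those of ZNF143 in 0.932% and 0.917%. In 500 bp on each side of the TSS, TATAAA was in 15.1% of genes in pairs and 32% of all, and CCAAT in 67.6% and 70.1%, so the order for CCAAT depended on the window.

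ETS letters were more frequent in pairs with H3K4me3 alone than in bivalent pairs. They were in 32% of genes of pairs with H3K4me3 alone in all 4 populations (29.4 to 34.6) and in 16.2% of those bivalent in all 4 (9.9 to 24.4). Among genes in no pair the same classes had 20.5% and 5.11%. The NRF1 letters were in 7.45% (6.08 to 9.03) and 1.8% (0.219 to 6.36) of genes of pairs with H3K4me3 alone and bivalent pairs. The YY1 letters were in 6.06% (4.82 to 7.5) and 0.901% (0.0228 to 4.92). The bivalent shares are 2 and 1 of 111 genes. Genes in no pair had the same order, with 6.34% and 1.86% for NRF1 and 3.43% and 0.587% for YY1. The GC box was in 68.4% (65.8 to 70.9) and 79.3% (70.5 to 86.4), beside 63.7% and 62.4% in no pair. TATAAA was in 3.8% and 9.91%, beside 6.62% and 8.04%. The intervals overlap for NRF1, YY1 and the GC box.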

How the data were processed

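Per the labels and the study's methods, the authors trimmed reads with Trim Galore, aligned them to mm9 with Bowtie, handled them with SAMtools and called peaks with HOMER in its histone style against H3, with a size of 1000 bp for H3K4me3 and 5000 bp for H3K27me3. The deposited lists give peak positions on mm9, counted from 0, from both replicates by the series record, whereas the study's methods describe calling in each replicate. With 1 list per mark and population they were treated as pooled. The file headers name 4.00-fold over input, p 1.00e-04 and the tag totals given above, except in the pregranulosa lists, which have no header. The score column of the deposited lists held the same value for every peak, the pregranulosa lists had none, and it was not used. Versions of these tools are not given in the sources used here.

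Overlapping peaks were joined. Pairs, windows, classes and motifs were computed in Python 3.11.15 with NumPy 2.4.6 and SciPy 1.17.1, and coverage was checked against bedtools 2.31.1. Class calling, pair finding and coverage were tested on simulated data. Gene records gave 789 pairs, among them 8 whose symbols repeat another pair and 16 genes in 2 pairs, and joining pairs that share a gene would give 773 promoters. Of the 1408 and 1164 listed sex-specific names, 1327 and 1072 matched a gene on these chromosomes. Spi1 was not matched among the markers.

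Pairs were named by rule: those known from textbooks, the most H3K27me3-covered of each pattern (at most 8 bivalent and 6 of each change), one-sided pairs, pairs without H3K4me3, pairs with a change in H3K4me3, changing pairs with a sex-specific gene, the first 3 by symbol of each role list with H3K27me3, and 3 on each side of the distance limit. Members and lists were chosen with earlier results of these data known. Groups came from the labels. Alternatives were 500 bp of cover, a 1 kb flank, wider regions, equal list lengths, joining within 1 kb, pairs in no other pair, a 300 bp limit, pairs whose regions overlap no other, 500 bp of each outer flank, a wider sequence window and, added after seeing the data, CpG-rich pairs. H3 was used by the authors as input and was not analysed here on its own. Chromosomes X and Y were left out of the comparisons. Some pairs that the rule selects are not reported here.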

Additional observations from a re-analysis of the deposited data

Results flagged for a closer look

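At 2 pairs a mark moved in opposite directions in the lineages, and with a single list per population the difference was not tested. H3K4me3 at Nisch/Sema3g covered 0 bp in XY progenitors and 1001 bp in Sertoli cells, and 1001 bp in XX progenitors and 0 bp in pregranulosa cells. A stretch of 1001 bp is the length of a single H3K4me3 calling window, and the XY progenitor list had the fewest tags of those stated. H3K27me3 at Pecr/Tmem169, with a peroxisomal reductase of fatty acid elongation, covered 0 bp in XY progenitors and 2883 bp in Sertoli cells, and 3328 bp in XX progenitors and 0 bp in pregranulosa cells. Pecr/Tmem169 was chosen after its values were seen.

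Pairs on the X chromosome lie outside the rule, and their signal was in none of the comparisons above. Of 19 such pairs H3K27me3 was present at 4 in XY progenitors, 18 in XX progenitors, 3 in Sertoli cells and 18 in pregranulosa cells. Among all 932 coding windows of that chromosome the shares were 9.98%, 70.1%, 8.69% and 60.8%. H3K4me3 was present at 17 of the 19 in every population. Pqbp1/Timm17b, chosen after its values were seen, was the only pair of the 19 without H3K27me3 in any population. What the difference between XX and XY cells rests on was not tested.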

How the results depend on the processing

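No paired analysis was possible because each list pools both replicates, and for the same reason no replicate could be left out. Of 141 alternative values for 29 shares, 113 stayed within the 95% interval of the share as reported and 28 did not. The bivalent share was lower at pairs than at genes in no pair in 40 of 40 comparisons, over 10 settings and 4 populations, by 1.7 to 3.43 times. The 10 settings include the result as reported. Joining peaks within 1 kb changed no bivalent count and no loss or gain of H3K27me3. Leaving out pairs that share a gene or overlap kept 757 and 755 of the 789 pairs. The comparisons, and the 141 values, are thus partly repeats of each other and not independent. Pairs with fewer than 2 CpG-rich windows were not among these settings. In XY progenitors 18.3% of them were bivalent, beside 15.5% of genes in no pair that were not CpG-rich. XX progenitors had 18.3% and 16.4%, Sertoli cells 12.9% and 15%, and pregranulosa cells 14% and 15.4%. The share was thus higher at these pairs in the progenitors only. Where H3K4me3 was present in XY progenitors, a split chosen after seeing the data, H3K27me3 was at 20.5% and 39.8%.

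With the widest 75% of regions, bivalent pairs were 10.1% in XY progenitors, 8.75% in XX progenitors, 6.46% in Sertoli cells and 6.84% in pregranulosa cells, and H3K4me3 alone was found at 88.7% in XX progenitors and 90.4% in pregranulosa cells. With equal numbers of regions per list, bivalent pairs were 6.21% in Sertoli and 6.84% in pregranulosa cells, H3K4me3 alone was at 91.1% and 90.9%, and the losses of H3K27me3 were 55% and 50% in the XY and XX lineages. That setting takes away the narrow regions of the longer E13.5 lists. For pairs at most 300 bp apart, H3K4me3 alone was at 87.3% in XY progenitors, 87.6% in XX progenitors, 90.5% in Sertoli and 90.4% in pregranulosa cells. For pairs with both windows CpG-rich, chosen after seeing the data, it was at 88.9%, 89.1%, 91.7% and 91.2%. The cause of these shifts was not tested.

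Where a side counted as covered by H3K4me3 with 500 bp of its outer 2 kb, both sides were covered at 87.4% in XY progenitors, 96% in XX progenitors, 93% in Sertoli and 94.9% in pregranulosa cells. With 500 bp on each side of the TSS, a longer window, TATAAA was in 15.1% of genes in pairs, CCAAT in 67.6%, GGGCGG in 88% and CCGGAAG in 41.3%.

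The lists hold calls and no levels, so a mark below the calling threshold counts as absent, and tag totals differed between lists. Regions of 34 pairs overlapped another. Intervals treat pairs as independent, which neighbouring pairs are not. TSSs came from gene records and not from these cells.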

Other observations

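The share of coding genes in a pair varied between chromosomes, from 4.78% on chromosome 6 to 10.4% on chromosome 8. Pairs with H3K27me3 in at least 1 list often held a gene known only by a model symbol, such as those beginning Gm or ending Rik. Such a symbol was in 46 of 123 of these pairs (37.4%, 28.8 to 46.6) and in 164 of 666 pairs without the mark (24.6%, 21.4 to 28.1).

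H3K4me3 covered a median of 1084 bp of the flank on the side of the minus-strand gene and 1374 bp on the other side in XY progenitors. The medians were 1542 and 1678 bp in XX progenitors, 1355 and 1508 bp in Sertoli cells, and 1536 and 1651 bp in pregranulosa cells. Which gene is on the minus strand follows from the orientation of the genome sequence, so the sides do not stand for kinds of gene. The source of this offset was not tested. The interval between TSSs at least 50 bp apart, in 682 pairs, had a median GC content of 62.2% and a median ratio of observed to expected CpG of 0.844.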
